A study of Hormonema carpetanum with 4 samples.

Results

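The genes described here are the sugar and polyol transporters of the fungus Hormonema carpetanum, the producer of the antifungal triterpene glycoside enfumafungin. They were chosen by the name of their best Swiss-Prot hit, which had to contain a term such as sugar, hexose, glucose or inositol transporter, maltose, lactose permease or quinate permease. The rule gave 56 of the 10951 genes in the table, after 2 genes that the rule names as exceptions were left out (gene08949 and gene02800). The rule reads names and not levels, but it was written with earlier results of these data known. RNA-seq was done on fermented mycelium, with strain ATCC 74360 (wild type) at day 14, its mutant ENF-5-29 also at day 14, and that mutant at day 18 grown at either 19 °C or 25 °C. The mutant is 1 strain obtained by mutagenesis to raise enfumafungin output, and its mutations are not stated in the labels. The titles of both day 14 libraries give no temperature, and the protocol speaks of 18 days for either strain; the day used here is that of the title. With 1 library in each of the 4 groups, no difference below was checked by replicates, and p-values are not given. Values are TPM, transcript abundances per gene length scaled to a library total of 1000000, which can be compared between genes but keep no read depth. The counting error of a value is therefore unknown.

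Most fungal sugar uptake runs through a large family of membrane proteins with a common fold, the sugar porters of the major facilitator superfamily. Some carry glucose down its gradient, such as the Hxt proteins of baker's yeast, whereas others couple uptake to protons, such as the maltose permeases of yeast, the lactose permease of Kluyveromyces lactis and the inositol transporters. In yeast, carriers of low affinity serve when glucose is plentiful and those of high affinity when it is scarce. Quinate permease takes up quinate, a plant acid that Aspergillus and Neurospora can use as carbon source, and STL1 of yeast takes up glycerol with protons. The substrate of a sugar porter is hard to read from its sequence, so each name below is that of the best hit and not a measured function.

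The names fell into 10 roles. There were 13 hits to glucose or hexose transporters, 13 to quinate permeases, 8 to lactose permease, 6 to STL1, 5 to maltose permeases, 4 to inositol transporters, 2 to a glucose/galactose transporter and 1 to the rice sugar transport protein MST7. The word maltose also caught 2 hits to the yeast regulator MAL13, which turns on maltose genes, and galactose transporter caught 2 carriers of UDP-galactose, the sugar donor used inside the secretory pathway. These 4 are no sugar uptake proteins and are described apart, which leaves 52 transporter hits. No glucose sensor and no xylose transporter was among the names. A Sugar_tr domain, the Pfam signature of the sugar porter family, was listed for 50 of the 56, and 120 genes of the table outside the group carry it too. The 2 genes left out by the rule are counted there if they carry it. Best hits came from Saccharomyces cerevisiae for 17 members and from Kluyveromyces lactis for 12. In 4 members the gene model also carries domains of other protein families (gene03076, gene04374, gene04862 and gene08179), so their TPM may cover more than a transporter. How reads shared by similar family members were assigned is not given in the sources used here.

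The transporters as a group made up 0.725% of all TPM in the wild-type library, 0.453% in the mutant at day 14, and at day 18 of the mutant 0.210% at 19 °C against 0.369% at 25 °C. The order of these sums was set by a few genes. The low-affinity glucose transporter HXT1 hit (gene10408) alone held 67.6% of the group's TPM in the wild type, and 65.8% in the 25 °C library. Without it the sums as deposited were 2350, 3390, 1300.3 and 1261 TPM in the same order of libraries. The mutant at day 14 was then highest and no longer the wild type. That change of order was not checked after rescaling and may depend on it. Rescaling by the median ratio over expressed genes moved the full sum from 7248 to 9268 TPM in the wild type. In the mutant at day 14 it moved the full sum from 4525 to 3378 TPM. The typical member lay below the median of all genes in every library except the mutant at day 14, where it was near that median. The median member stood at 5.81 TPM in the wild type, 17.2 TPM in the mutant at day 14, and 6.70 and 7.10 TPM at day 18 at 19 °C and 25 °C, against medians of all genes of 9.0, 16.7, 10.6 and 13.6 TPM. Of the 56 members, 27 reached 20 TPM in some library and 9 reached 100 TPM, while 3 stayed below 1 TPM in every library (gene01101, gene03108 and gene05860). None was listed at 0 in all 4 libraries.

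**Figure D1:**
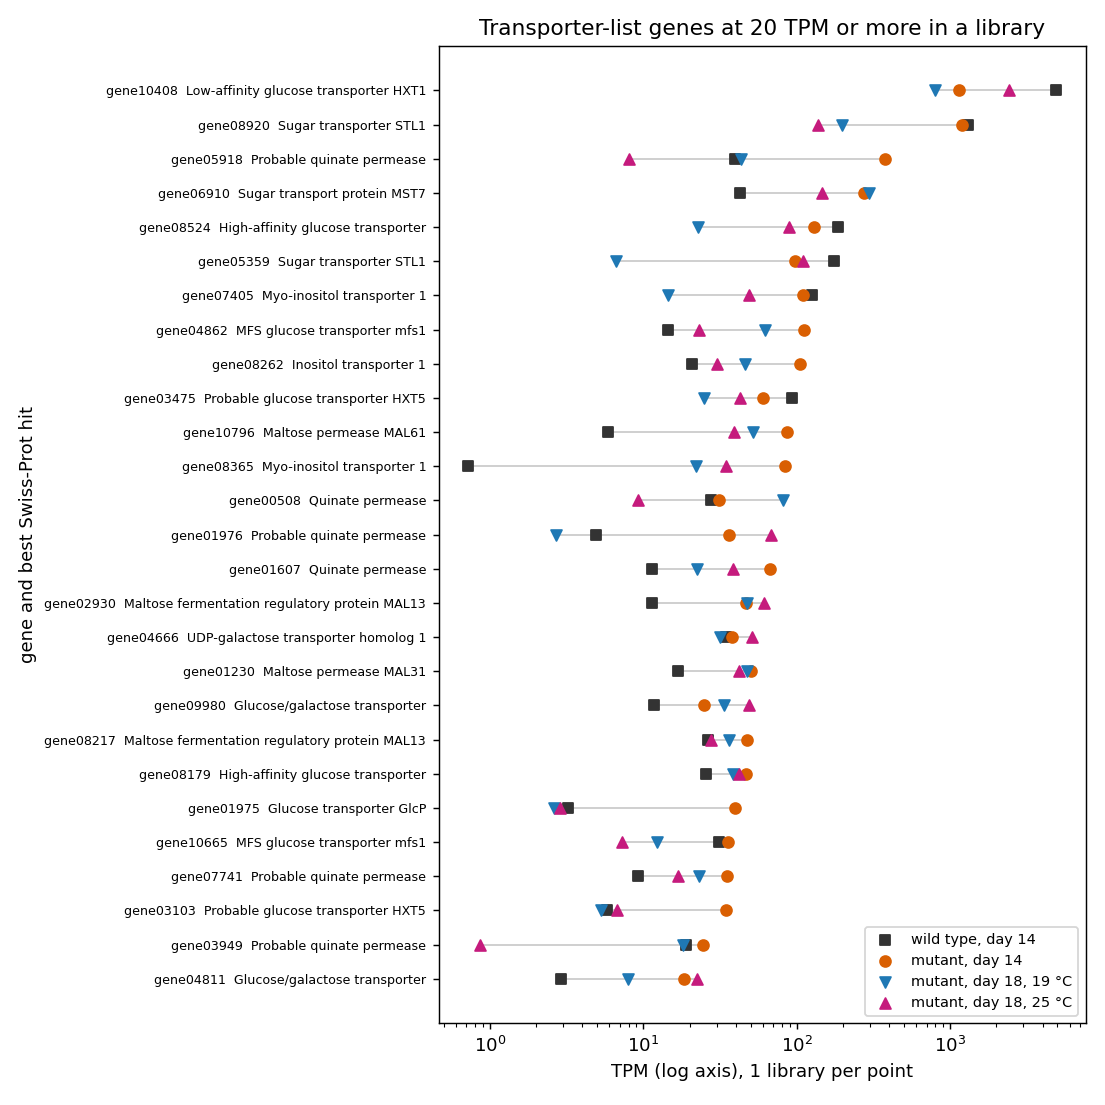
TPM on a log axis for the 27 members that reached 20 TPM in any of the 4 libraries, with 1 point per library and a grey line from the lowest to the highest value. The HXT1 hit gene10408 spans 795 to 4897 TPM, and the inositol transporter hit gene08365 has the widest line, from 0.72 to 83.2 TPM.

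**Figure D2:**
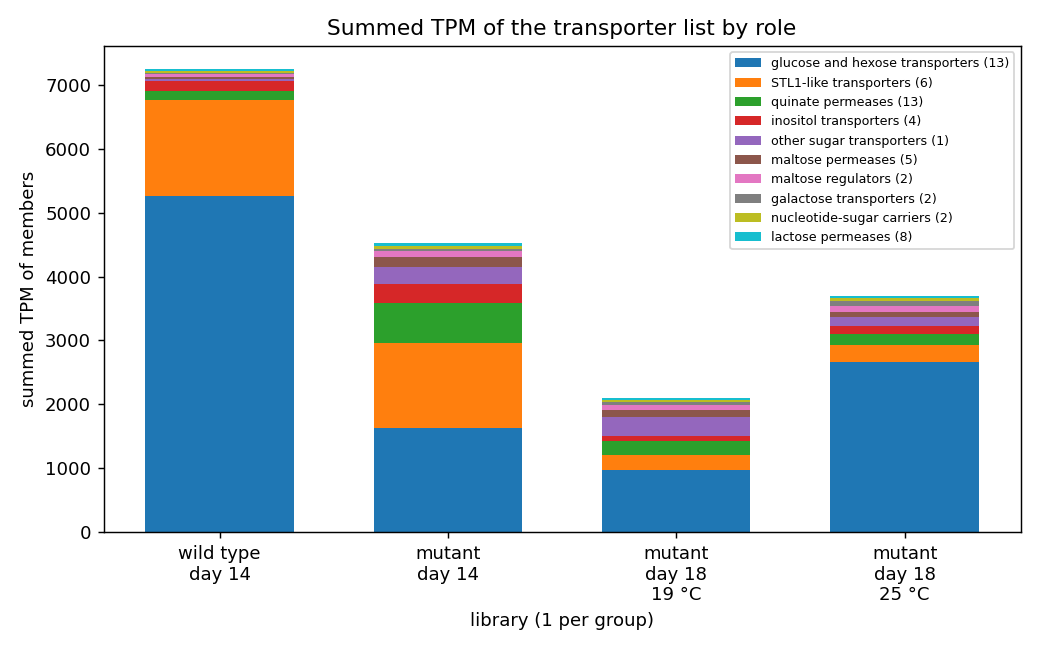
Summed TPM of the members by role of the best hit in each of the 4 libraries, with the number of genes per role in the key. Glucose and hexose transporter hits take 5262 TPM in the wild type against 1627 TPM in the mutant at day 14, whereas quinate permease hits take 141 and 630.0 TPM.

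The first comparison, mutant against wild type at day 14, asks how the strains differ. Many transporters of middling level were higher in the mutant, while the most abundant one was lower. A gene was tested when it reached 1 TPM in either library and called when log2 of TPM plus 1 differed by 1 or more, a 2-fold ratio. Of 53 tested members, 26 were higher in the mutant, or 49.1%, against 40.7% of all 9272 tested genes. Only 2 were lower, or 3.77%, against 14% of all tested genes; these were the HXT1 hit gene10408 and a lactose permease hit (gene04606). The members' median log2 ratio was 0.85 and that of all tested genes 0.64. Rescaling by the median ratio over expressed genes moved the median of all genes by -0.72 in this comparison, and by 0.18, 0.34 and 0.51 in the comparisons of temperature, of time at 25 °C and of time at 19 °C. After it, 21 members were higher and 9 lower in the mutant, with a median of 0.29. Higher members then made up 70.0% of the members' calls, in place of 92.9%, while over all genes the share went from 74.4% to 48.8%. Of the 120 other genes with a Sugar_tr domain, 108 were tested, with 44 higher and 18 lower and a median of 0.37; no test of this difference was made.

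Glucose and hexose transporter hits were the most abundant role and were split in the strain comparison, with 6 of 13 higher in the mutant and 1 lower. These shares, 46.2% and 7.69%, stand against 40.7% and 14% of all tested genes. The lower one, the HXT1 hit gene10408, stood at 4897 TPM in the wild type, 1135 TPM in the mutant at day 14, 795 TPM at day 18 at 19 °C, then 2429.7 TPM at 25 °C. It ranked 33rd of all genes in the wild-type library and 138th in the mutant at day 14, a 4.31-fold difference. It was the only one of 53 members at least 2-fold above every mutant library in the wild type, narrowly so against the 25 °C library. Of all genes, 8.98% met that rule. The glucose transporter hits next in abundance within the wild type were also highest there. The high-affinity glucose transporter hit gene08524 stood at 185, 130, 22.6 and 88.6 TPM in the wild type, the mutant at day 14, and at day 18 at 19 °C and 25 °C. An HXT5 hit (gene03475), whose yeast namesake is made in slowly growing cells, stood at 93.5, 60.2, 24.9 and 42.7 TPM in that order. Both lay within 2-fold between the strains as deposited, with log2 ratios of -0.50 and -0.63, but were called lower after rescaling by the median ratio, at -1.28 and -1.39.

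The glucose transporter hits that were higher in the mutant were low in the wild type. An mfs1 hit (gene04862) stood at 14.6 TPM in the wild type, 112 TPM in the mutant at day 14, 62.0 TPM at 19 °C, then 22.9 TPM at 25 °C; its model also carries an arylsulfotransferase domain. A hit to the bacterial glucose carrier GlcP (gene01975) stood at 3.21, 39.6, 2.62 and 2.86 TPM, and a second HXT5 hit (gene03103) at 5.78, 34.4, 5.29 and 6.70 TPM. For both, the mutant at day 14 was high and the other 3 libraries were alike and low. Another mfs1 hit (gene06440) stood at 0.65, 18.2, 9.53 and 7.04 TPM, so that all mutant libraries were above the wild type. The mfs1 hit gene10665, at 31.3, 35.4, 12.3 and 7.26 TPM, lay within 2-fold between the strains and was lower at day 18. A high-affinity glucose transporter hit joined to ankyrin repeats (gene08179) was the steadiest of the abundant ones, at 25.5, 46.9, 38.4 and 41.8 TPM. The 4 other glucose transporter hits stayed below 10 TPM in every library; of these gene08278, at 0.83 and 7.94 TPM in the wild type and the mutant at day 14, and gene07195, listed at 0 and at 3.23 TPM, were called higher in the mutant.

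The STL1 hits in this group, from which the rule left 2 genes out, lay mostly within 2-fold between the strains. Of 6, 1 (gene03076) was higher in the mutant, or 16.7%, against 40.7% of all tested genes, and 0 were lower, against 14%. After rescaling by the median ratio gene05359 was called lower, at -1.60 in place of -0.83. The most abundant STL1 hit, gene08920, was second of the group in the wild type and first in the mutant at day 14. It stood at 1301 TPM in the wild type, 1199 TPM in the mutant at day 14, 196 TPM at day 18 at 19 °C, then 138 TPM at 25 °C. Both day 14 libraries were high and both day 18 libraries low, with log2 ratios against the mutant at day 14 of -2.61 at 19 °C and -3.11 at 25 °C. The hit gene05359 had another pattern, at 173, 96.9, 6.58 and 110 TPM in the same order. It was low in the 19 °C library alone, 16.7-fold below the 25 °C library. The other 4 STL1 hits lay between 2.18 and 15.9 TPM across all libraries.

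Of 13 quinate permease hits, 8 were called higher in the mutant, or 61.5%, against 40.7% of all tested genes. None was called lower, against 14%. Their median log2 ratio was 1.81, against 0.64 for all tested genes. The most abundant, gene05918, stood at 39.6 TPM in the wild type, 377 TPM in the mutant at day 14, 43.2 TPM at day 18 at 19 °C, then 8.04 TPM at 25 °C. Its mutant day 14 value was 9.53-fold above the wild type, and at day 18 the 19 °C library was near the wild type and the 25 °C library below it. The hit gene01607 stood at 11.5, 66.8, 22.2 and 38.6 TPM and gene07741 at 9.24, 34.9, 23.1 and 16.9 TPM, each lowest in the wild type. The hit gene06044 had the largest ratio of TPM of any member, at 0.09 TPM in the wild type against 16.2 TPM in the mutant at day 14, a value that rests on a very low wild-type level. At day 18 it had 4.64 TPM at 19 °C, then 11.4 TPM at 25 °C. A hit to the Neurospora permease (gene09414) went the other way, at 19.2, 9.27, 11.6 and 9.79 TPM. Its log2 ratio of -0.98 missed the 2-fold line as deposited and passed it with a pseudocount of 0.1 and under both rescalings.

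Among the 4 inositol transporter hits, 3 were tested and 2 were higher in the mutant, or 66.7%, against 40.7% of all tested genes. The myo-inositol transporter hit gene08365 had the largest log2 ratio of all members, 5.61. It stood at 0.72 TPM in the wild type, 83.2 TPM in the mutant at day 14, 22.2 TPM at day 18 at 19 °C, then 34.4 TPM at 25 °C, and every mutant library was above the wild type. The hit gene08262, named for an Arabidopsis carrier of the vacuole membrane, stood at 20.6, 105, 45.6 and 30.3 TPM. A second myo-inositol transporter hit (gene07405) lay within 2-fold between the strains, at 125.3 and 109 TPM, and was lower at day 18, at 14.4 TPM at 19 °C, then 48.9 TPM at 25 °C. The third (gene05860) stayed below 1 TPM.

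Carriers of other sugars were mostly low in the wild type. The MST7 hit gene06910, named for a monosaccharide carrier of rice, stood at 42.9 TPM in the wild type, 273 TPM in the mutant at day 14, 297 TPM at 19 °C, then 145 TPM at 25 °C. All 3 mutant libraries were above the wild type, the lowest of them by more than 2-fold. The maltose permease MAL61 hit gene10796 behaved alike, at 5.84, 86.4, 51.4 and 38.9 TPM, as did the MAL31 hit gene01230 at 16.9, 50.2, 47.0 and 42.1 TPM. The call for gene01230 between the strains depended on the scaling, at a log2 ratio of 1.52 as deposited and 0.77 after rescaling by the median ratio. The 3 other maltose permease hits stayed below 4 TPM. Of the glucose/galactose transporter hits, gene09980 stood at 11.8, 24.9, 33.3 and 49.1 TPM and gene04811 at 2.88, 18.3, 7.96 and 22.2 TPM; each was lowest in the wild type and highest in the mutant at 25 °C. The call for gene09980, at a log2 ratio of 1.02, was lost at 0.29 after rescaling by the median ratio, at 0.96 after rescaling without the 20 highest genes and at 0.83 with a pseudocount of 5. None of the 8 lactose permease hits passed 14.4 TPM in any library. Of 7 tested, 3 were higher in the mutant (42.9%) and 1 was lower (14.3%), near the 40.7% and 14% of all tested genes.

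Of the members that are no uptake proteins, the MAL13 hits stood at 11.4, 46.3, 47.6 and 61.5 TPM (gene02930) and at 26.3, 47.5, 35.9 and 27.6 TPM (gene08217), and the first was called higher in the mutant. The UDP-galactose carrier hit gene04666 stood at 34.6, 37.9, 31.4 and 50.7 TPM, without a call in any comparison. The other carrier hit (gene09212) lay between 0.62 and 8.25 TPM. Across the whole group, 12 of 53 members were at least 2-fold lower in the wild type than in every mutant library, or 22.6%, near the 19.2% of all genes. They were the maltose permease, MST7, glucose/galactose and mfs1 hits gene10796, gene01230, gene06910, gene09980, gene04811, gene06440 and gene07195, the inositol hit gene08365, the quinate hit gene06044, the lactose hits gene04374 and gene05781, and the regulator gene02930.

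**Figure D3:**
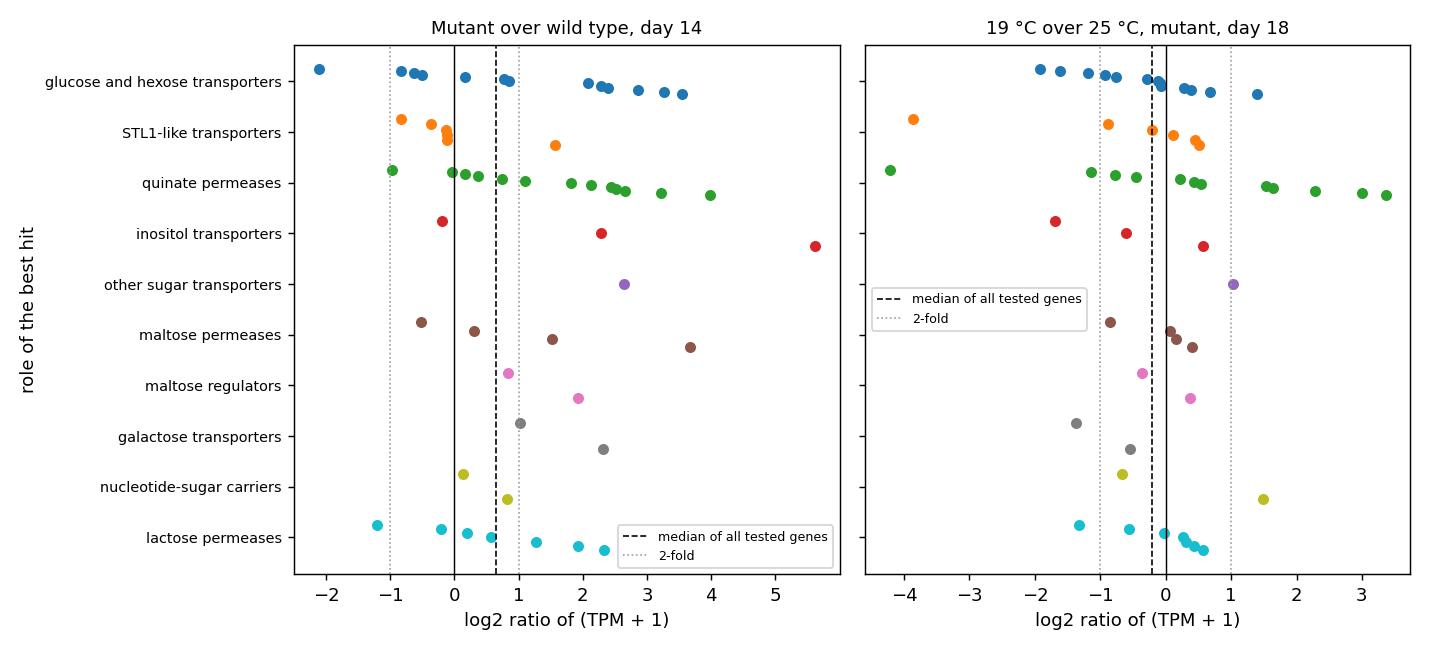
Log2 ratio of TPM plus 1 for each tested member, by role, for the mutant over the wild type at day 14 (left) and for 19 °C over 25 °C in the mutant at day 18 (right), with each point a gene. The solid line is 0, the dashed line the median of all tested genes (0.64 and -0.21) and the dotted lines a 2-fold ratio; quinate permease hits spread from -4.21 to 3.36 between the temperatures.

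The next comparison, 19 °C against 25 °C in the mutant at day 18, asks what fermentation temperature changes. The most abundant glucose transporter hit was lower at 19 °C, and the quinate permease hits went in opposite directions. Of 52 tested members, 8 were higher at 19 °C, or 15.4%, against 10.9% of all tested genes, and 9 were lower, or 17.3%, against 21.4%. The members' median log2 ratio was 0.02 and that of all tested genes -0.21. The HXT1 hit gene10408 was 3.05-fold lower at 19 °C and the high-affinity glucose transporter hit gene08524 was 3.92-fold lower. The STL1 hit gene05359 was lower by 3.87 on the log2 scale, and the myo-inositol transporter hit gene07405 was 3.39-fold lower. Higher at 19 °C were the mfs1 hit gene04862, by 2.71-fold, and the MST7 hit gene06910, by 2.04-fold.

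Of 12 tested quinate permease hits, 5 were higher at 19 °C (41.7%, against 10.9% of all tested genes) and 2 were lower (16.7%, against 21.4%). The hit gene03949 stood at 18.2 TPM at 19 °C but at 0.86 TPM at 25 °C, while its day 14 values were 18.9 TPM (wild type) and 24.6 TPM (mutant). The 25 °C library was thus the low one, by 21.1-fold against 19 °C. The hit gene00508 stood at 81.0 TPM at 19 °C, 9.28 TPM at 25 °C, and 27.7 and 31.1 TPM in the wild type and the mutant at day 14, so the 19 °C library was the highest and the 25 °C library the lowest. The hits gene05918, gene06194 and gene06566 were 5.37-fold, 5.58-fold and 4.25-fold higher at 19 °C, the last of them at only 5.91 and 1.39 TPM. For gene06194 the levels were lower still, 4.80 and 0.86 TPM, and its log2 ratio of 1.64 became 0.74, without a call, with a pseudocount of 5. The call for gene06566 was lost with that pseudocount too. In the other direction, gene01976 stood at 2.69 TPM at 19 °C but at 67.5 TPM at 25 °C, a 25.1-fold difference, with 4.93 and 36.3 TPM in the wild type and the mutant at day 14. The other lower hit was gene06044, whose log2 ratio of -1.14 became -0.97 after rescaling by the median ratio and -0.77 with a pseudocount of 5.

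The mutant at day 18 was also set against the mutant at day 14, once for each temperature. These comparisons share the day 14 library, which is also in the strain comparison. The title of that library gives no temperature, so in at least 1 of them day and temperature cannot be told apart. Most called members were lower at day 18. At 25 °C, 20 of 53 members were lower, or 37.7%, against 24.4% of all tested genes, and 1 was higher, or 1.89%, against 14.1%. The median log2 ratio was -0.76, against -0.30 for all tested genes. After rescaling by the median ratio 13 members were lower and 3 higher, so higher members made up 18.8% of the calls in place of 4.76%, while over all genes the share went from 36.7% to 57.0%. At 19 °C, 21 of 53 were lower, or 39.6%, against 27.9% of all tested genes, and 1 was higher, or 1.89%, against 7.97%, with medians of -0.87 and -0.55. After the rescaling 14 were lower and 1 higher, so higher members made up 6.67% of the calls in place of 4.55%. Over all genes that share went from 22.2% to 59.2%. The single higher member was the HXT1 hit gene10408 at 25 °C, at a log2 ratio of 1.10, and the quinate permease hit gene00508 at 19 °C, at 1.35. The largest ratio at 25 °C was that of the quinate permease hit gene05918, at -5.39, and the largest at 19 °C that of the STL1 hit gene05359, at -3.69. All 3 tested inositol transporter hits were lower at both temperatures. After rescaling by the median ratio, gene07405 (-0.79) and gene08365 (-0.89) lost that call at 25 °C and gene08262 (-0.63) lost it at 19 °C. No maltose permease hit was lower at 19 °C, and 1 of 4, gene10796, was lower at 25 °C, a call that the same rescaling ended at -0.77. Over the 4 libraries, 30 of 53 members, or 56.6%, had their highest value as deposited in the mutant at day 14, against 38.1% of all genes. Rescaling by the median ratio, which lowers the values of that library, was not applied to this count.

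Genes that act on the sugars and polyols after uptake were taken by name, and their counts stand against 40.7% of all tested genes higher in the mutant and 14% lower. The lists were corrected for wrong matches after the table was seen. Of 10 tested kinases for hexoses, pentoses and glycerol, 6 were higher in the mutant than in the wild type (60.0%) and 3 lower (30.0%). A hexokinase (gene00481), which traps glucose in the cell as its phosphate, stood at 11.7 TPM in the wild type but at 204 TPM in the mutant at day 14. Also higher were a glucokinase (gene04458) at 30.8 and 235 TPM, and a hexokinase-1 hit (gene07220) at 7.71 and 50.3 TPM. The others were a galactokinase (gene01478) at 9.24 and 44.3 TPM, and glycerol kinases at 29.1 and 119 TPM (gene00127) and 0.84 and 102 TPM (gene02801). Another hexokinase (gene01952) went the other way, at 154 and 31.6 TPM. So did a second glucokinase (gene04071) at 13.8 and 3.32 TPM, and a D-xylulose kinase hit (gene02946) at 66.2 and 15.3 TPM. Of 14 polyol and pentose dehydrogenases, 8 were higher (57.1%) and 4 lower (28.6%). The most abundant of them, an NADP-dependent mannitol dehydrogenase hit (gene07123), stood at 1688 and 2391 TPM in the wild type and the mutant at day 14, without a call. The mannitol-1-phosphate 5-dehydrogenase hit gene03294, which makes mannitol 1-phosphate from fructose phosphate, stood at 44.1 and 273 TPM, and a glycerol 2-dehydrogenase hit (gene01485) at 349 and 34.0 TPM. A mannitol dehydrogenase hit (gene04859) stood at 61.6 TPM at 25 °C and between 0.71 and 6.69 TPM in the 3 other libraries. Of 37 tested hydrolases of disaccharides and starch, 17 were higher (45.9%) and 5 lower (13.5%), shares near those of all genes; the list before correction gave 22 higher and 10 lower of 58. The alpha-glucosidase hit gene00397, which releases glucose from maltose, stood at 25.6 and 277 TPM, and the glucoamylase hit gene09040, which releases it from starch, at 221 and 20 TPM.

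Of 9 enzymes of quinate and inositol breakdown, 6 were higher in the mutant (66.7%) and 0 lower, and the median log2 ratio was 2.24. The list of carbon source regulators was altered after the table was seen, by exchanging a gene caught by chance letters for the SNF1 kinase hit. All 3 of its genes were then higher in the mutant, against 2 of 3 before and 40.7% of all tested genes. The hit to creA (gene03389), the repressor of genes for other carbon sources when glucose is present in Aspergillus, stood at 16.6 TPM in the wild type, 65.5 TPM in the mutant at day 14, 52.8 TPM at 19 °C, then 97.9 TPM at 25 °C. The xylanase activator hit xlnR (gene08131) stood at 4.90, 17.0, 4.99 and 8.72 TPM. The hit to the SNF1 kinase (gene08938), which in yeast relieves glucose repression, stood at 1.08, 27.5, 10.3 and 17.0 TPM, lowest in the wild type. Between the temperatures none of the 3 was called, whereas in the list before the exchange 1 of 3 was lower at 19 °C.

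By gene number, 5 of the 56 members, or 8.93%, lay within 2 numbers of such an enzyme or of a protein of the quinate cluster, against 2.53% of all other genes. The order of gene numbers is taken from the table, and coordinates are not given there. The quinate permease hit gene01607 lies in a run of 5 with a 3-dehydroshikimate dehydratase (gene01605), an inositol 2-dehydrogenase hit (gene01606) that the Nr database names as a quinate oxidoreductase, and a pair of hits to QA-X (gene01608 and gene01609), a protein of the quinate cluster of Neurospora. The dehydrogenase stood at 6.60 TPM in the wild type, 64.2 TPM in the mutant at day 14, 37.9 TPM at 19 °C, then 13.8 TPM at 25 °C. The QA-X hits stood at 9.81, 99.7, 108 and 47.0 TPM and at 11.8, 53.9, 22.8 and 37.5 TPM. All 4 of these genes, the permease included, were higher in the mutant at day 14 by at least 4.56-fold, whereas the dehydratase stood at 30.5 and 29.2 TPM.

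The inositol transporter hit gene08365 sits beside a scyllo-inositol 2-dehydrogenase hit (gene08364), an enzyme that oxidises an isomer of inositol. That neighbour stood at 5.33 TPM in the wild type, 261 TPM in the mutant at day 14, 86.1 TPM at 19 °C, then 79.9 TPM at 25 °C, and was 48.9-fold higher in the mutant at day 14. In both genes the wild type was the lowest and the mutant at day 14 the highest. The low quinate permease hit gene06566, at 5.06, 12.0, 5.91 and 1.39 TPM, sits beside an L-arabinitol 4-dehydrogenase hit (gene06567), an enzyme of arabinose use, at 12.7, 113, 28.4 and 34.7 TPM. The last 2 of the 5 showed no joint difference between the strains: the lactose permease hit gene10287 and a beta-glucosidase hit (gene10288) had log2 ratios of 0.57 and -0.76, and the STL1 hit gene00474 and an alpha/beta-glucosidase hit (gene00476) had -0.11 and 0.84. A pair of members, the GlcP hit gene01975 and the quinate permease hit gene01976, have consecutive numbers. They were alike in the wild type, in the mutant at day 14 and at 19 °C, and differed at 25 °C, at 2.86 and 67.5 TPM.

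**Figure D4:**
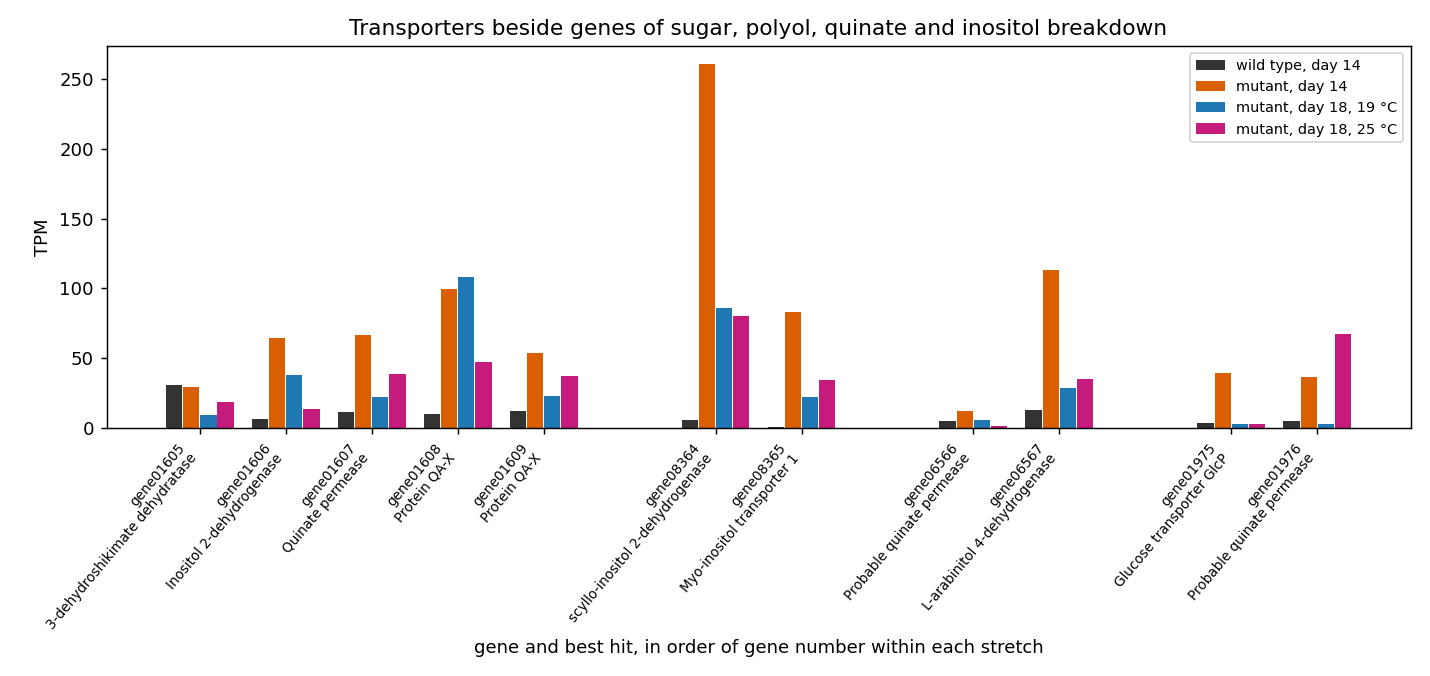
TPM in the 4 libraries for 4 stretches of consecutive gene numbers that hold a transporter, with each bar 1 library. The inositol pair gene08364 and gene08365 reaches 261 and 83.2 TPM in the mutant at day 14 from 5.33 and 0.72 TPM in the wild type.

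The labelled tissue was checked by names of genes of growing hyphae and of spore formation. Once the table was seen, the hyphal list was cut from 73 to 13 genes by removing wrong matches. These genes are for actin, tubulins, elongation factor 1-alpha and chitin synthases. They summed to 8103 TPM in the wild type, 5942 TPM in the mutant at day 14, 4444 TPM at 19 °C and 8677 TPM at 25 °C. Elongation factor 1-alpha (gene03292) was the largest part of each sum, with 5327, 2857, 2021 and 4928 TPM in that order. Its log2 ratio between the strains was -0.90, without a call. With this gene left out, the wild-type sum was no longer above that of the mutant at day 14. Of the 13, 7 were higher in the mutant than in the wild type at day 14, or 53.8%, against 40.7% of all tested genes, and 0 lower. The list before removal gave 42 higher and 3 lower of 73. Between the temperatures, 9 of 12 tested were lower at 19 °C than at 25 °C and 0 higher. In the list before removal 19 of 72 were lower at 19 °C, or 26.4%, against 21.4% of all genes. The 5 spore formation genes summed to 43.3 TPM in the wild type and to between 780.4 and 1021 TPM in the mutant libraries. Among them, 4 of 4 tested were higher in the mutant at day 14, against 40.7% of all tested genes. Most of the sum in the mutant was conidiation-specific protein 10 (gene06873), at 9.91 TPM in the wild type but at 688 TPM in the mutant at day 14. The spore regulator wetA (gene02208) was listed at 0 or at up to 0.11 TPM. Their part in the transporter differences was not tested. Fewer cells of a type and less RNA per cell cannot be told apart in these bulk samples.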

How the data were processed

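Per the labels' protocols, libraries were prepared from mycelial total RNA using the SMARTER mRNA-Seq chemistry. The authors deposited 1 table of TPM, rounded to 2 decimals, for 10951 genes and 4 libraries. How reads were aligned, counted and annotated is not given in the sources used here, and no sequences, lengths or coordinates were used. TPM keep no depth, so precision from counting is unknown and no count model was run.

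Columns were matched to samples by library name and groups taken from the titles. Ratios are differences of log2(TPM + 1); folds beside TPM values are plain ratios. A gene entered a comparison at 1 TPM in either library and was called at 2-fold. No test was made with 1 library per group. The steps were tested on simulated data.

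Members and lists were chosen with earlier results of these data known. Members at 20 TPM or more in a library are named, as are the 5 largest and 5 smallest ratios per comparison among those at 10 TPM; other members, list genes and neighbours named were chosen after values were seen. After the table was seen, lists by name were trimmed of wrong matches, such as phosphofructokinase and cell wall glucosidases, and in the regulator list a wrong match was exchanged for the SNF1 kinase hit. The regulators and UDP-galactose carriers kept membership. Alternatives were a pseudocount of 0.1 or of 5, dropping the filter or raising it to 10 TPM, calling at 4-fold, rescaling either by the median ratio (from genes that reach 1 TPM in every library) or to the total without the 20 highest genes, and leaving out the carriers. Leaving out the regulators, the models with other domains, gene10408 and gene08920 was added after seeing the data. Python 3.11.15 with pandas 2.3.3 and numpy 2.4.6 was used.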

Additional observations from a re-analysis of the deposited data

How the results depend on the processing

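No paired analysis was possible because each group has 1 library and no replicate number. The count of members lower in the mutant, 2 as reported, was 4 with a pseudocount of 0.1, 1 with a pseudocount of 5, with a filter of 10 TPM or at 4-fold, and 9 after rescaling by the median ratio. Between the temperatures, the 8 members higher at 19 °C became 5 with a pseudocount of 5 or a filter of 10 TPM and 3 at 4-fold, and the 9 lower became 2 at 4-fold. For time at 25 °C, 0 members were higher and 10 lower at 4-fold, and 3 and 13 after rescaling by the median ratio. For time at 19 °C, 0 were higher and 9 lower at 4-fold, and the median of -0.87 became -0.51 with a pseudocount of 5 and -0.41 after rescaling by the median ratio. In TPM as deposited, leaving out gene10408 gave sums of 2350 TPM in the wild type and 1300.3 and 1261 TPM at day 18 at 19 °C and 25 °C. Leaving out gene08920 too gave 1050, 2191, 1104 and 1123 TPM in the wild type, the mutant at day 14, and the mutant at 19 °C and 25 °C. Among the 31 members named by level or by rank of ratio, no call changed sign under another pseudocount or rescaling, but calls were lost. Rescaling by the median ratio ended 2 between the strains, 1 between the temperatures, 5 for time at 25 °C (gene06440, gene07405, gene07741, gene08365 and gene10796) and 5 for time at 19 °C (gene03475, gene04811, gene06194, gene08262 and gene10665). A pseudocount of 5 ended 1, 2, 2 and 2 in the same order of comparisons, and rescaling without the 20 highest genes ended that of gene09980 between the strains. Rescaling by the median ratio also added 4 calls between the strains and 2 for time at 25 °C. With 1 culture per group, strain, culture and library cannot be told apart, and low values have an unknown counting error.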
